A study of Homo sapiens with 6 samples.

Results

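The genes examined here encode the enzymes and transporters that take up glucose, split it to pyruvate, export lactate, bring pyruvate into mitochondria and run the pentose phosphate pathway. The set holds 35 genes, chosen by function and matched by symbol to the gene identifiers, out of 63140 genes listed in the deposited files. All 35 had enough counts to be among the 14451 genes tested. RNA was sequenced from BT-549 cells, a wild-type human triple negative breast cancer line, grown for 24 h in adipocyte-conditioned medium (ACM, 3 cultures) or unconditioned medium (UCM, 3 cultures). ACM was insulin and oleate medium kept on differentiating OP9 mouse stromal cells, and the sample labels give it as 50% ACM while the supplementary methods describe it as undiluted for the RNA-seq. The recipe of UCM is not stated, so glucose, serum, insulin and oleate may have differed between the groups together with what the adipocytes secreted, and these cannot be told apart.

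Libraries were of similar depth, with 17135288 to 21053257 expected counts each, and nothing states that the replicate cultures came from separate experiments, so p-values measure the spread between these cultures. The labels call the cells epithelial, but of 8 epithelial marker genes 5 stayed under 10 counts in every library, and EPCAM had at most 2 counts. The mesenchymal gene VIM had between 51679 and 63093 counts. ESR1 and PGR, the hormone receptor genes, had 0 counts in every library. ERBB2, the other receptor gene looked up, had between 1253 and 1564 counts (25.45 to 32.43 TPM). Of 7 adipocyte marker genes 6 stayed under 10 counts, with ADIPOQ, LEP and CIDEC at 0 in every library. The summed level of the 7 was 3.77 to 6.41 TPM in ACM and 3.23 to 3.93 TPM in UCM. Along the first principal component of all tested genes ACM replicate 2 lay farthest from the UCM libraries, and calls are given with and without each library below.

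Glycolysis converts glucose to pyruvate in the cytosol, and many tumour cells turn much of that pyruvate into lactate even when oxygen is present. Its pace is set mainly by glucose entry, hexokinase, phosphofructokinase and lactate export, and most of these steps can be carried out by more than one isozyme. The pentose phosphate pathway branches off after the hexokinase step and supplies NADPH and ribose for nucleotides. Several of the genes are known targets of the hypoxia-inducible factors and of MYC.

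These genes ranged from highly to barely expressed in both media. Levels are given here as TPM, which is per transcript length, so that genes can be compared. They are amounts relative to all mRNA of a culture, in which fewer expressing cells and less RNA per cell cannot be told apart. Together the 35 genes made up 1.64% ± 0.071 of all TPM in UCM and 1.67% ± 0.066 in ACM (SD, n = 3 each), and the 6 libraries overlapped, with 1.56%, 1.68% and 1.69% in UCM replicates 1 to 3 and 1.59%, 1.70% and 1.72% in ACM. The 4 most abundant, ENO1 (enolase), GAPDH, ALDOA (aldolase) and PKM (pyruvate kinase), held 66.5% of the set's TPM in UCM. ENO1 averaged 4540 TPM in UCM, GAPDH 2804, ALDOA 1913 and PKM 1668. Next came PGAM1 (753 TPM), LDHA (727 TPM), TPI1 (717 TPM), TKT (640 TPM) and LDHB (594 TPM). At the other end, 5 genes averaged less than 10 TPM in UCM, namely TIGAR, PFKFB2, PFKFB4, SLC2A3 and SLC16A3. SLC16A3 was the lowest, at 0.57, 0.62 and 0.57 TPM in UCM and 1.55, 2.21 and 1.03 TPM in ACM. Its effective length, by which TPM is divided, was 1181 bases in UCM replicate 3 and 1937 or more in the other libraries.

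**Figure D1:**
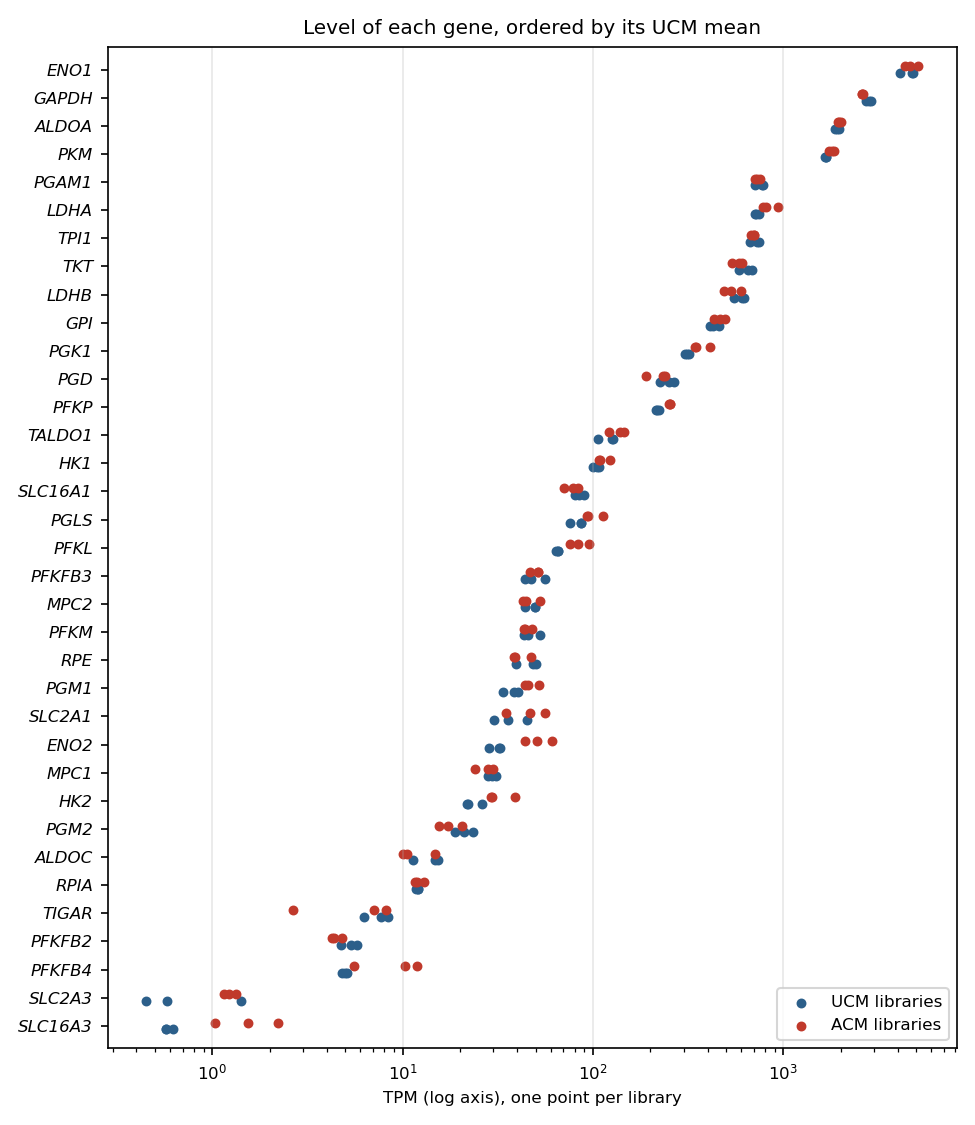
Level of each of the 35 genes in TPM on a log axis, 1 point per library, with UCM in blue and ACM in red, ordered by the UCM mean. ENO1, GAPDH, ALDOA and PKM sit at the top with overlapping or adjoining points, and SLC16A3 and SLC2A3 at the bottom.

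Most of the genes differed little between the media, and more were higher than lower in ACM. The larger differences were among genes of lower level. Differences were tested on counts, printed as CPM, with edgeR's quasi-likelihood test and Benjamini-Hochberg adjustment over all 14451 genes. CPM is the count scaled to the library's total over the tested genes, adjusted by its TMM normalization factor. With adjusted p-values up to 0.05 taken as passing, 3 of the 35 genes were higher in ACM (8.57%), against a background of 3.35% of all genes tested, and 0 were lower, against 2.21%. With unadjusted p-values up to 0.05, 12 were higher (34.3%) and 2 lower (5.71%), against backgrounds of 11.9% and 11.5%. The median log2 difference (ACM minus UCM) of the 35 was 0.08, beside -0.01 over all genes tested, with 21 genes above 0 and 14 below. The study also set thresholds of its own, p-values up to 0.05 and a log2 size of 0.58 or more, and the p-value was taken here as unadjusted because the paper does not say which it is. By these, 5 of the 35 counted as UpDEGs (14.3%) and 0 as DownDEGs, beside backgrounds of 4.12% and 1.71% of all genes tested. The 5 were SLC2A1, SLC2A3, PFKFB4, ENO2 and SLC16A3. All 3 ACM values of CPM lay above all 3 UCM values for 13 genes (37.1%), where 13.9% of all genes did so. They lay below them for 3 genes (8.57%), where 15.1% of all genes did. The 15 genes above 100 TPM in UCM had a log2 difference between -0.14 and 0.25, and the 20 genes below that level between -0.53 and 1.86. The standard errors were also wider among the lower genes, up to 0.41 against 0.10.

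**Figure D2:**
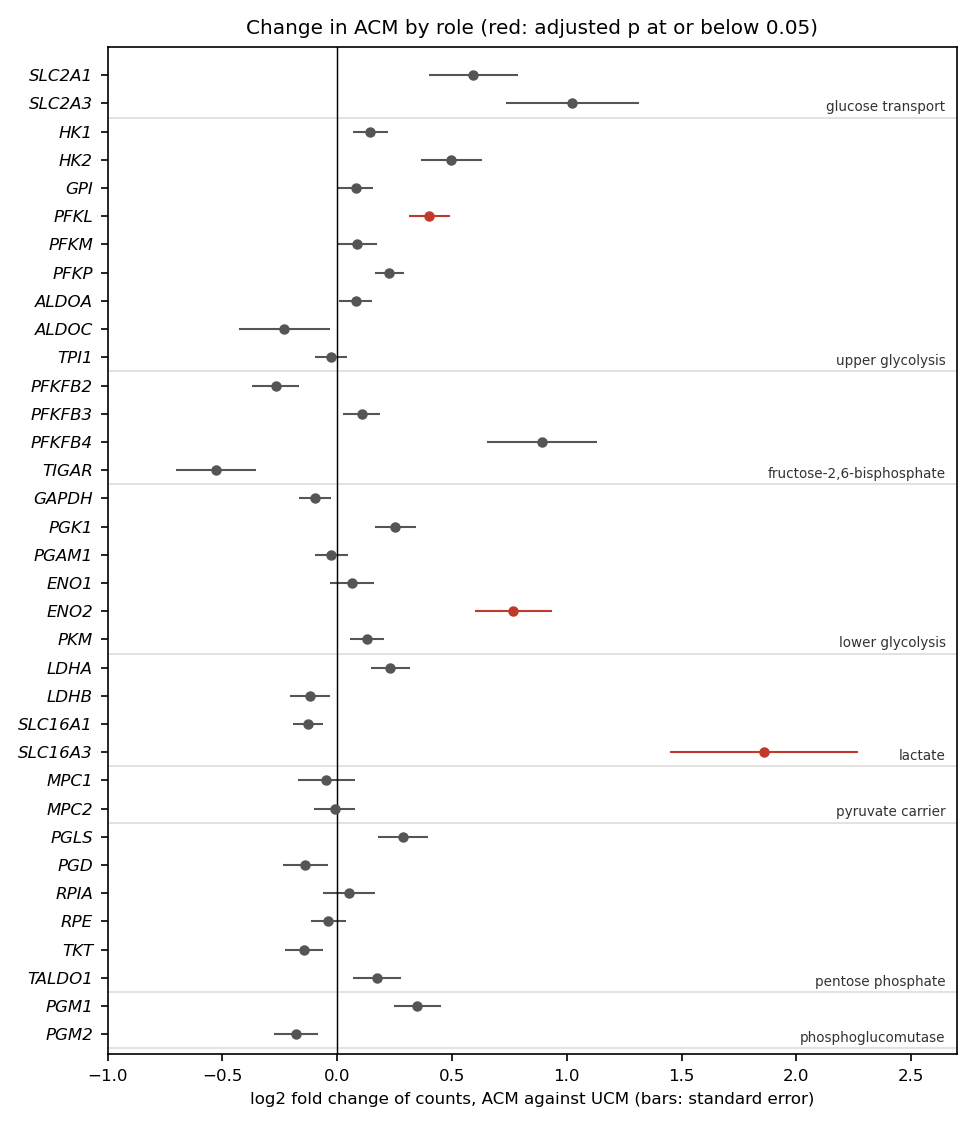
Log2 fold change of counts in ACM against UCM for each gene, grouped by role, with bars for the standard error from edgeR. The 3 genes in red, PFKL, ENO2 and SLC16A3, passed the adjusted p-value, and 20 of the 35 points lie within 0.2 of 0.

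The 3 genes that passed encode a lactate exporter, an enolase and a phosphofructokinase. In GRCh38, SLC16A3 lies on chromosome 17, 82217934 to 82261129, ENO2 on chromosome 12, 6913745 to 6923698 and PFKL on chromosome 21, 44300051 to 44327376, all on the plus strand. SLC16A3 encodes MCT4, the monocarboxylate transporter of cells that export much lactate. It had 2.66, 4.06 and 1.69 CPM in ACM replicates 1, 2 and 3 and 0.948, 0.860 and 0.466 CPM in UCM. Every ACM value was above every UCM value, on counts of only 56, 72 and 31 in ACM and 20, 16 and 8 in UCM. Its log2 difference was 1.86 ± 0.41 (SE, edgeR adjusted p = 0.0304), a 3.63-fold difference. The gene overlaps CSNK1D on the opposite strand, and strand use is not stated, so reads from the shared stretch cannot be told apart. A pair of genes without symbols overlap it on the same strand, with 189 and 37 counts against 202 for SLC16A3, so its split from them is uncertain too. CSNK1D itself had 14736 counts, with a log2 difference of 0.08 (edgeR adjusted p = 0.551).

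ENO2 encodes the gamma enolase, best known from neurons. It had 58.0, 77.6 and 49.5 CPM in ACM and 38.1, 31.5 and 39.0 CPM in UCM. The groups did not overlap, and ACM replicate 3 was the nearest to UCM. Its log2 difference was 0.77 ± 0.17 (SE, edgeR adjusted p = 0.0396). PFKL encodes the liver-type phosphofructokinase, the committed step of glycolysis. Its values were 158.5, 180 and 139 CPM in ACM and 119, 120 and 122 CPM in UCM, with UCM replicates much closer together than those in ACM. The log2 difference was 0.40 ± 0.09 (SE, edgeR adjusted p = 0.0318).

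Calls across all genes varied with the libraries used, and these 3 with them. Over the 6 fits that each dropped 1 library, the log2 difference ran between 1.503 and 2.12 for SLC16A3, between 0.57 and 0.90 for ENO2 and between 0.30 and 0.49 for PFKL, all above 0. Over all the alternative fits, that of SLC16A3 ran between 0.69 and 2.12. PFKL had an adjusted p of 0.0618, 0.102, 0.124 and 0.0913 from edgeR without ACM replicate 1, ACM replicate 2, UCM replicate 2 and UCM replicate 3. SLC16A3 had 0.0600, 0.135, 0.0993 and 0.107 without the same libraries. ENO2 had 0.0737, 0.0509, 0.151 and 0.101 without them, and 0.0760 without UCM replicate 1. The number of the 35 that were higher at the adjusted p-value was 0 without ACM replicate 1, ACM replicate 2, UCM replicate 2 or UCM replicate 3, in fits where 2.83%, 1.34%, 0.846% and 1.06% of all genes were higher. It was 2 without UCM replicate 1 (background 5.03%). It was 5 without ACM replicate 3 (background 2.17%), when PFKFB4 and SLC2A1 passed as well. The number lower was 1, TIGAR, without ACM replicate 1 (background 1.40%). DESeq2 called 8 of the 35 higher and 0 lower, namely these 3 with HK2, PFKFB4, PFKP, PGM1 and SLC2A1, in a fit where 5.33% and 3.08% of the 13626 genes with an adjusted p-value were higher and lower. When read counts were corrected for the effective lengths that RSEM gave, ENO2 alone was higher, against 1.88% of all genes, and PFKL and SLC16A3 had adjusted p = 0.0660 and 0.0861 from edgeR.

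The start regions of these genes were read for the letters ACGTG, a form of the core to which hypoxia-inducible factors bind. Other forms of that core were not read. ACGTG is also part of CACGTG, the E-box that MYC binds. RefSeq start windows of 300 bases (250 before the start and 50 after, GRCh38.p14) were found for 32 of the 35 genes, and SLC2A3, SLC16A1 and PFKFB2 were not matched. On either strand, ACGTG was present in 21 of 61 windows of these genes (34.4%) and in 21.4% of all 35116 windows. CACGTG was present in 7 of the 61 (11.5%) and in 7.26% of all. ENO2 and SLC16A3 were among the 17 genes with ACGTG in a window and PFKL was not. A gene with more windows had more places for a match, and SLC16A3 had more windows than PFKL. No share per gene was computed over all genes, so the 17 have no background beside them. A match describes letters and is not evidence that a factor binds there. The stretches that hold the matches before the start are shown for ENO2 and SLC16A3. LDHA and PGK1 are shown as examples from lactate formation and ATP formation, picked after their values were seen. Other genes with ACGTG, such as HK2, PFKP and PGM1, were also above UCM in every ACM culture. ACGTG was present as well for TIGAR, ALDOC, PGM2, PGD, GAPDH and TPI1, with log2 differences of -0.53, -0.23, -0.18, -0.14, -0.10 and -0.03. For PFKFB3, PFKM, ALDOA and GPI, also with ACGTG, the groups overlapped. HK1, PKM, PFKFB4 and PGLS had no match and were above UCM in every ACM culture. The PGK1 window holds 3 matches, of which the 2 before the start are printed. Capitals mark ACGTG or, on the other strand, CACGT, and both together read CACGTG. All 4 lie on the plus strand, ENO2 at chr12:6914447-6914481, SLC16A3 at chr17:82228959-82229006, LDHA at chr11:18394363-18394509 and PGK1 at chrX:78104031-78104084.
ENO2: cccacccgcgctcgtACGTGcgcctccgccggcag
SLC16A3: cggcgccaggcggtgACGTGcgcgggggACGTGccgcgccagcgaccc
LDHA: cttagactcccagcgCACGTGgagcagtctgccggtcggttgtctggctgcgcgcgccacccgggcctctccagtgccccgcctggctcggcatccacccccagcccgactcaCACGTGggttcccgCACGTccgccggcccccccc
PGK1: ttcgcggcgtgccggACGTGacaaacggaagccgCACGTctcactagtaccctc

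Glucose enters these cells through facilitative transporters. SLC2A1 encodes GLUT1, the basal transporter of most tumour cells, and had 55.5, 52.7 and 33.8 CPM in ACM and 36.1, 27.7 and 30.2 CPM in UCM. ACM replicates 1 and 2 were above all UCM values, whereas ACM replicate 3 fell inside their range. The log2 difference was 0.59 ± 0.19 (SE, edgeR adjusted p = 0.125), and over the alternative fits it ran between 0.30 and 0.78. RSEM gave SLC2A1 an effective length of 869 bases in UCM replicate 2 against 1397 or more in the other libraries. In TPM it had 56.21, 46.65 and 34.91 in ACM and 35.62, 45.08 and 30.32 in UCM. SLC2A3 encodes GLUT3, a transporter of high affinity, and had only 2.14, 2.08 and 2.34 CPM in ACM and 1.14, 0.968 and 1.11 CPM in UCM. Its 3 ACM values were above UCM, with a log2 difference of 1.02 ± 0.29 (SE, edgeR adjusted p = 0.0689). Pseudogenes named after SLC2A3 held 346 counts against 186 for the gene itself, so the split of reads between them is uncertain. With the pseudogene counts added to the gene, the log2 difference of SLC2A3 was 0.27 ± 0.27 (SE, edgeR adjusted p = 0.607), and the 5 UpDEGs became 4. Among the other members with named pseudogenes, those held at most 0.031% of the summed count. In TPM the groups of SLC2A3 overlapped, with 1.42 TPM in UCM replicate 2, where RSEM gave it an effective length of 963 bases against 2456 or more in the other libraries.

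The upper part of the pathway, from hexokinase to triose phosphate isomerase, held 9 genes, of which 7 had a log2 difference above 0 and PFKL alone passed the adjusted p-value. HK2 encodes the inducible hexokinase, and HK1 the housekeeping form. HK2 had 112, 151 and 108 CPM in ACM and 96.6, 82.6 and 82.8 CPM in UCM. All ACM values were above UCM, and the log2 difference was 0.50 ± 0.13 (SE, edgeR adjusted p = 0.0693). HK1 had 252, 293 and 251 CPM in ACM and 239, 234 and 248 CPM in UCM, a log2 difference of 0.14 ± 0.08 (SE, edgeR adjusted p = 0.289). PFKP, the platelet-type phosphofructokinase and the most abundant of the 3, had 406, 423 and 408 CPM in ACM and 342, 357 and 357 CPM in UCM. The gap between the groups was wider than the range within either, with a log2 difference of 0.23 ± 0.06 (SE, edgeR adjusted p = 0.0597). PFKM, the muscle form, had 58.0, 60.6 and 65.4 CPM in ACM and 52.3, 58.5 and 62.6 CPM in UCM, with the groups overlapping. The gene overlaps SENP1 on the opposite strand. GPI, ALDOA and TPI1, which catalyse reversible steps, had log2 differences of 0.08, 0.08 and -0.03, each with a standard error of 0.08 or less and with overlapping groups. A protein-coding gene on the same strand overlaps ALDOA and took 14325 counts, 8.08% of the ALDOA count, so its split from ALDOA is uncertain. That gene was itself higher in ACM, with a log2 difference of 0.38 (edgeR adjusted p = 0.0468). ALDOC, the minor aldolase, had a log2 difference of -0.23 (standard error 0.20). RSKR overlaps ALDOC on the same strand and had 1197 counts against 1343, so this split is uncertain too.

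PFKFB enzymes make or break down the sugar bisphosphate that activates phosphofructokinase, and TIGAR degrades it. The 4 genes did not move together. PFKFB4 had 20.1, 20.9 and 10.5 CPM in ACM and 9.24, 9.03 and 9.45 CPM in UCM. ACM replicates 1 and 2 were well above UCM and ACM replicate 3 only just, which gave a log2 difference of 0.89 ± 0.24 (SE, edgeR adjusted p = 0.0712). Without ACM replicate 3 the log2 difference of PFKFB4 was 1.14 (edgeR adjusted p = 0.00954). PFKFB3, the most abundant of the family and the one with the strongest kinase activity, had 135, 135 and 120 CPM in ACM and 133, 116 and 114 CPM in UCM, a log2 difference of 0.11 ± 0.08 (SE, edgeR adjusted p = 0.472). PFKFB2 had 18.0, 18.7 and 19.7 CPM in ACM and 24.7, 21.6 and 21.6 CPM in UCM. All ACM values were below UCM, with a log2 difference of -0.27 ± 0.10 (SE, edgeR adjusted p = 0.148). YOD1 overlaps PFKFB2 on the opposite strand and had 1261 counts against 2368, with a log2 difference of -0.17 (edgeR adjusted p = 0.495). TIGAR had 11.8, 7.89 and 7.88 CPM in ACM and 13.98, 13.8 and 12.1 CPM in UCM. It too was lower in every ACM culture, by little in ACM replicate 1, with a log2 difference of -0.53 ± 0.17 (SE, edgeR adjusted p = 0.104). Without ACM replicate 1 its log2 difference was -0.75 (edgeR adjusted p = 0.0278). Its effective length was 4100 bases in ACM replicate 2 and 1395 in ACM replicate 3, so its TPM values, between 2.66 and 8.39, overlapped between groups. A protein-coding gene on the same strand overlaps TIGAR and had 132 counts against 1293, so the split of reads between them is uncertain.

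In the lower part, from GAPDH to pyruvate kinase, 6 genes included 3 with all ACM values above UCM. PGK1 encodes phosphoglycerate kinase, the first ATP-forming step, and had 471, 563 and 453 CPM in ACM and 391, 431 and 427 CPM in UCM (log2 difference 0.25 ± 0.09 SE, edgeR adjusted p = 0.124). PKM had 2365, 2611 and 2474 CPM in ACM and 2227, 2290 and 2291 CPM in UCM, a log2 difference of 0.13 ± 0.07 (SE, edgeR adjusted p = 0.316). Counts per gene do not tell its splice forms apart. GAPDH, the reference gene of the study's RT-qPCR, had 1821, 1859 and 1815 CPM in ACM and 1858, 2002 and 2018 CPM in UCM. The highest ACM value just passed the lowest UCM value, while in TPM every ACM value was below UCM (2575 to 2619 TPM against 2704 to 2881 TPM). The log2 difference was -0.10 ± 0.07 (SE, edgeR adjusted p = 0.450). ENO1 had 4575, 4970 and 5274 CPM in ACM and 4198, 5007 and 4964 CPM in UCM. PGAM1 and ENO1 overlapped between groups, with log2 differences of -0.03 and 0.06 (standard errors 0.07 and 0.09).

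Pyruvate leaves glycolysis as lactate or enters mitochondria. LDHA encodes the lactate dehydrogenase subunit that favours lactate formation, and had 945, 1145 and 950 CPM in ACM and 878, 858 and 851 CPM in UCM. ACM was above UCM throughout, with ACM replicate 2 highest, and the log2 difference was 0.23 ± 0.09 (SE, edgeR adjusted p = 0.135). LDHB, the other subunit, had 352, 389 and 426 CPM in ACM and 387, 438 and 443 CPM in UCM, which overlapped (log2 difference -0.12, standard error 0.09). SLC16A1 encodes MCT1, the more widespread lactate transporter, and had 108, 115 and 113 CPM in ACM and 120, 124 and 124 CPM in UCM. All ACM values were below UCM, opposite to SLC16A3, with a log2 difference of -0.13 ± 0.06 (SE, edgeR adjusted p = 0.266). MPC1 and MPC2, the subunits of the mitochondrial pyruvate carrier, had log2 differences of -0.05 and -0.01 (standard errors 0.13 and 0.09), and their signs changed when single libraries were left out.

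The pentose phosphate genes showed no call in either direction among 6 tested. PGLS, the lactonase of the oxidative arm, had 48.4, 58.9 and 46.1 CPM in ACM and 37.7, 44.1 and 43.97 CPM in UCM, with ACM above UCM (log2 difference 0.29 ± 0.11 SE, edgeR adjusted p = 0.143). PGD, the second NADPH-forming dehydrogenase of that arm, had a log2 difference of -0.14 (standard error 0.10). In the non-oxidative arm, TKT (transketolase) and TALDO1 (transaldolase) had log2 differences of -0.14 and 0.17, while RPIA and RPE, which interconvert pentose phosphates, had 0.05 and -0.04, all with standard errors of 0.11 or less. PGM1 and PGM2 encode phosphoglucomutases, PGM1 linking glycogen to glycolysis and PGM2 acting mainly on ribose phosphates. PGM1 had 63.7, 77.6 and 65.0 CPM in ACM and 47.8, 55.9 and 58.3 CPM in UCM, with no overlap (log2 difference 0.35 ± 0.10 SE, edgeR adjusted p = 0.075). PGM2 had 27.8, 28.3 and 30.5 CPM in ACM and 29.3, 34.1 and 34.5 CPM in UCM, which overlapped (log2 difference -0.18, standard error 0.10).

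**Figure D3:**
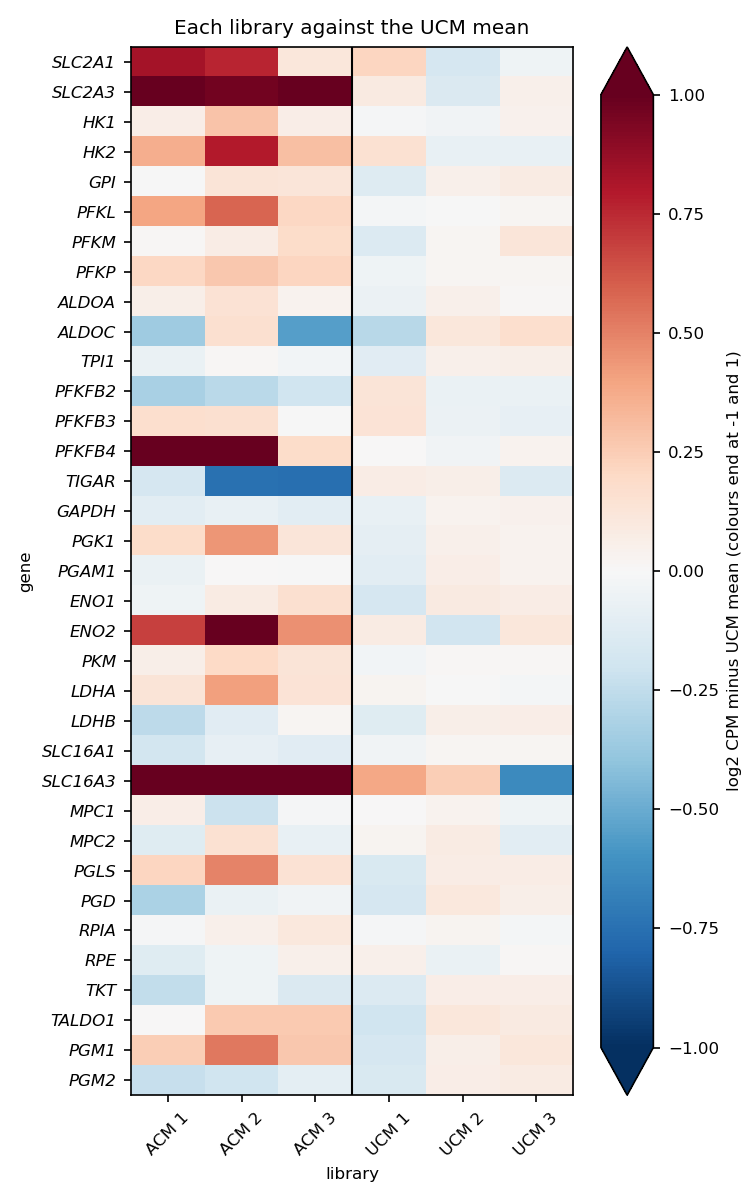
Log2 CPM of each gene in each library minus its UCM mean, with red for higher and blue for lower and colours ending at -1 and 1. SLC2A1, PFKFB4 and ENO2 are red in ACM replicates 1 and 2 and paler in ACM replicate 3, SLC2A3 and SLC16A3 are dark in all 3, and TIGAR is blue in ACM replicates 2 and 3.

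The increases were uneven between ACM cultures. Of the 13 genes above UCM in every ACM culture, ACM replicate 2 held the highest value in 12 and ACM replicate 3 the lowest in 8. Across all 35 genes, the median difference from the UCM mean was 0.0094, 0.155 and 0.109 (log2 CPM) in ACM replicates 1, 2 and 3, and it lay between -0.03 and 0.04 in the UCM replicates.

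Because isozymes moved differently, their shares within a family also differed, as computed from TPM in each library and given without a test. The minor isozyme of several families held a larger share in every ACM culture. HK2 made up 21.6%, 24.2% and 21.03% of the hexokinase pair in ACM and 20.03%, 18.04% and 17.2% in UCM. ENO2 made up 1.16%, 1.30% and 0.848% of the enolase pair in ACM and 0.779%, 0.592% and 0.677% in UCM, so ENO1 remained nearly all of it. SLC16A3 made up 2.15%, 2.75% and 1.22% of the SLC16A1 and SLC16A3 sum in ACM and 0.630%, 0.725% and 0.704% in UCM. The UCM values of SLC16A3 rest on 20, 16 and 8 counts. PFKFB4 made up 15.6%, 17.6% and 9.76% of the PFKFB family in ACM and 7.27%, 9.29% and 8.84% in UCM, and PFKFB2 had a smaller share in every ACM culture, 7.09% ± 1.11 against 8.96% ± 0.351 (SD, n = 3 each). Among the phosphofructokinases PFKL made up 22.1% ± 1.89 in ACM and 19.7% ± 0.460 in UCM with no overlap, PFKM was lower, with 11.7% ± 0.241 against 14.3% ± 1.16, and PFKP overlapped, with 66.2% ± 2.11 and 66.1% ± 0.700. Computed from CPM in place of TPM, the values of PFKL and PFKM overlapped between groups. PGM1 made up 72.6% ± 3.26 of the phosphoglucomutase pair in ACM and 64.0% ± 0.737 in UCM, with no overlap. LDHA made up 61.6%, 64.1% and 57.4% of the lactate dehydrogenase pair in ACM and 57.6%, 53.9% and 53.6% in UCM, which overlapped. The shares of ALDOC, PFKFB3 and MPC1 overlapped as well. SLC2A3 overlapped in TPM, and from CPM its share was higher in every ACM culture (4.66% against 3.32% on average).

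**Figure D4:**
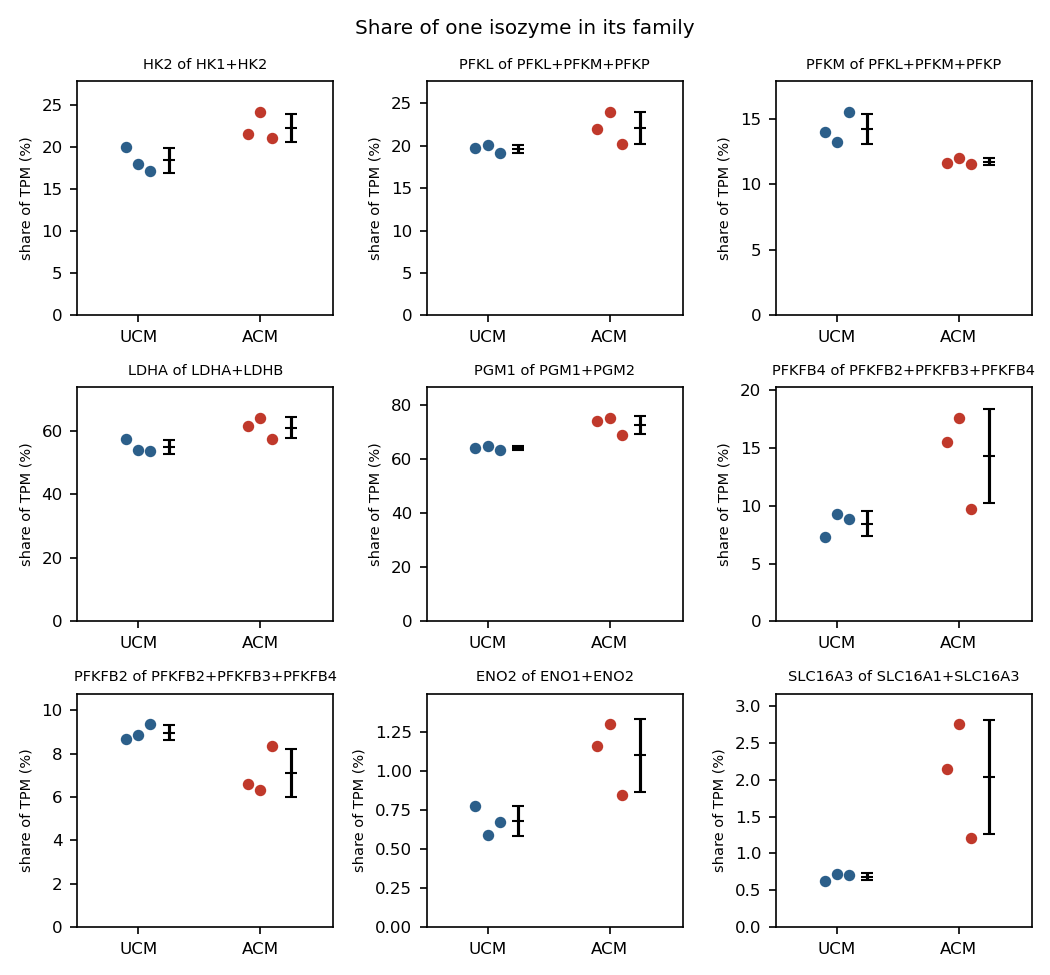
Share of 1 isozyme in the summed TPM of its family, in percent, with 1 point per library and the mean and SD of the 3 beside them. HK2, PFKL, PGM1, PFKFB4, ENO2 and SLC16A3 are higher and PFKM and PFKFB2 lower in all ACM libraries, while LDHA overlaps.

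Genes next to this pathway were looked up in lists arranged by function. Of 62 tested genes on 7 such lists, 10 were higher and 2 lower in ACM at the adjusted p-value, against the same backgrounds of 3.35% and 2.21%. Leaving out UCM replicate 2, UCM replicate 3 or ACM replicate 2 lowered the 10 to 3, 4 and 5 and the 2 to 0, 0 and 1, and leaving out UCM replicate 1 raised the 2 to 4. The other transporters and glycolytic genes gave 0 higher and 1 lower of 10, the lower being SLC2A6, a lysosomal sugar transporter, with a log2 difference of -0.64 ± 0.11 (SE, edgeR adjusted p = 0.0122). Of 8 other pentose phosphate and ribose genes 0 were higher and 1 was lower, PRPS1, which makes the activated ribose for nucleotides (log2 difference -0.45 ± 0.07 SE, edgeR adjusted p = 0.00875). Among 4 gluconeogenesis genes, PCK2, the mitochondrial form of the enzyme that makes phosphoenolpyruvate, had 23.0, 25.1 and 27.9 CPM in ACM and 11.75, 12.4 and 11.8 CPM in UCM. That was a log2 difference of 1.08 ± 0.11 (SE, edgeR adjusted p = 0.00141), and no ACM value came near UCM.

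The side branches for amino sugars, sorbitol and glycogen held 4 of the 10. GFPT2, an isozyme of the first enzyme of hexosamine synthesis, had 102, 149 and 94.5 CPM in ACM and 28.4, 23.8 and 21.6 CPM in UCM. Its log2 difference was 2.22 ± 0.20 (SE, edgeR adjusted p = 0.0033), a 4.66-fold difference. AKR1B1, aldose reductase, had 319, 555 and 355 CPM in ACM and 202, 195 and 194 CPM in UCM (log2 difference 1.06 ± 0.21 SE, edgeR adjusted p = 0.0401). These were the 2 higher of 9 hexosamine and polyol genes, with 0 lower. Of 10 glycogen genes 2 were higher and 0 lower, PYGL (glycogen phosphorylase) and PGM2L1 (a relative of the phosphoglucomutases), with log2 differences of 0.46 and 0.61 (adjusted p = 0.0267 and 0.0295 from edgeR).

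Of 10 tested regulators 2 were higher and 0 lower. EPAS1, which encodes HIF-2 alpha, had 337, 458 and 380 CPM in ACM and 211, 234 and 242 CPM in UCM (log2 difference 0.77 ± 0.11 SE, edgeR adjusted p = 0.00655). MYC had 179, 183 and 196 CPM in ACM and 150, 142 and 160 CPM in UCM (log2 difference 0.30 ± 0.07 SE, edgeR adjusted p = 0.0371). HIF1A overlapped between groups, with a log2 difference of -0.07 ± 0.08 (SE, edgeR adjusted p = 0.670), and so did TXNIP, a glucose-responsive inhibitor of glucose uptake, with 0.30 ± 0.36 (SE, edgeR adjusted p = 0.685). Of 11 tested hypoxia targets outside glycolysis 3 were higher and 0 lower, PDK1, BNIP3 and EGLN1, with log2 differences of 0.71, 0.70 and 0.36 (adjusted p = 0.0186, 0.0424 and 0.0135 from edgeR), and 7 of the 11 had all ACM values above UCM, as 13.9% of all genes tested did. BNIP3, a mitophagy receptor, had 78.2, 98.7 and 61.3 CPM in ACM and 50.7, 46.8 and 48.9 CPM in UCM. As for ENO2, ACM replicate 2 was the highest and ACM replicate 3 the nearest to UCM.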

How the data were processed

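PolyA-enriched RNA of 6 BT-549 cultures was read in pairs. According to the paper and the submitters' processing notes, the authors used Trim Galore for trimming, STAR for alignment to GRCh38 and RSEM for quantification. Versions and annotation are not given in the sources used here. The authors deposited an expected count per gene, which shares ambiguous reads and is not scaled for depth, and a TPM value, which is divided by the gene's effective length in that library, a value deposited beside it. Expected counts were whole in all 6 libraries (within 0.005) for 22 of the 35 genes. The authors' table of DESeq2 fold changes and p-values was not used. Symbols were found for 61547 of 63140 identifiers.

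Counts were rounded, filtered with filterByExpr, scaled by TMM and tested with edgeR 4.0.16 under R 4.3.3 (robust quasi-likelihood, condition only, Benjamini-Hochberg over all genes tested). Fold changes are ACM against UCM. The coefficient of biological variation was 0.115. Tested on simulated data, the fit recovered most but not all of the changed genes and made some false calls. The genes, the lists and the rule for naming genes were chosen with earlier results of these data known, so no test over the list was made. By that rule every member is named, values per library are given for members called or at an unadjusted p-value at or below 0.05 with groups apart and for their isozymes, and other genes are named where called, with HIF1A, MYC and TXNIP always given. Values per library of GAPDH and PKM were added after they were seen. Alternatives were other size factors, filters and gene sets, DESeq2 1.42.0, limma 3.58.1 on log2 TPM with 1 or 0.1 added, effective lengths as offsets, the replicate number as a block, pseudogene counts summed in, and each library left out.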

Additional observations from a re-analysis of the deposited data

How the results depend on the processing

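The number of members past the adjusted p-value moved most. The 3 higher genes (background 3.35% of all genes) became 10 with every gene of at least 1 count kept (4.10%), 8 with DESeq2 (5.33%), 7 with the replicate block (6.29%), 5 with protein-coding genes only (4.47%), and 1 with effective lengths as offsets (1.88%) or in the limma fits on TPM (1.59% and 1.62%). The 0 lower genes became 1, TIGAR, with every gene kept (2.66%) and with the replicate block (4.86%). Same-numbered libraries correlated at 0.318, 0.0347 and 0.177 in their deviations from the group means, and ACM replicate 3 correlated best with UCM replicate 2 (0.196), so the numbers were not taken as pairs. ENO2 was not among the 7 under the block (adjusted p = 0.0971 from edgeR). By the study's thresholds the 5 higher became 3 with effective lengths and in both limma fits. Of the neighbouring lists, the 10 higher became 16 with every gene kept and 6 in limma with 1 added to TPM. With single libraries left out, members numbered 0 to 5 higher and 0 to 1 lower, by the study's thresholds 3 to 6 and 0 to 1, and list genes 3 to 11 and 0 to 4. Shares from CPM in place of TPM differed by -1.17 points for PFKM, -3.42 for PFKFB2 and -0.67 for PFKFB3, against -2.51, -1.87 and -3.97. Signs turned only near 0: PFKM -0.038 with effective lengths and -0.061 and -0.062 in the limma fits, MPC2 0.0023 with at least 10 counts in every library, and with single libraries left out TPI1 (-0.072 to 0.012), PGAM1 (-0.068 to 0.0088), ENO1 (-0.0040 to 0.13), MPC1 (-0.10 to 0.029), MPC2 (-0.10 to 0.049) and RPE (-0.087 to 0.011). The cause was not tested. SLC16A3, on 8 to 72 counts per library, has the least depth of the genes called.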
